A study of Homo sapiens with 6 samples.

Results

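The genes described here encode the protein factors that start and extend a polypeptide on the ribosome. They were all protein-coding genes whose symbol begins with EIF1, EIF2B, EIF2S, EIF3, EIF4, EIF5, EIF6, EEF1 or EEF2, leaving out EEF2K and the EIF2AK kinases. The rule found 62 of the 58174 genes in each deposited table, and it used no measured value. The RNA came from LN-229, an established human glioblastoma line. Nuclear-enriched total RNA of both groups was sequenced after removal of ribosomal RNA. There were 3 libraries of cells treated with control-NC and 3 of cells treated with sh-JMJD1C, a name usually read as a hairpin against JMJD1C, which encodes a protein of the JmjC family of histone demethylases. Hairpin sequence, vector, number of hairpins and time after treatment are unstated in the sources used here. Whether the 3 libraries of a group were separate cultures is also unstated, so p-values measure only the spread between these libraries, which may be technical. Fewer cells of a type and less RNA per cell cannot be told apart in such bulk libraries.

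Translation starts when a small ribosomal subunit, loaded with eIF1, eIF1A, eIF3, eIF5 and the initiator tRNA carried by eIF2, joins an mRNA whose cap is held by eIF4F and scans to a start codon. The exchange factor eIF2B recharges eIF2 with GTP, eIF5B joins the large subunit, and eIF6 keeps the large subunit apart until it is needed. Elongation then uses eEF1A to deliver aminoacyl-tRNA, the eEF1B complex to recycle eEF1A, eEF2 to move the ribosome along, and eIF5A to ease stalled peptide bonds. In nucleus-enriched RNA these genes were read as nuclear transcripts together with whatever cytoplasmic mRNA remained, so no value below is a measurement of protein or of translation.

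The libraries held 544442 to 2960454 reads in control-NC and 1660561 to 1919675 reads in sh-JMJD1C. A level is given as normalised RPM, which is the recovered reads of a gene per 1000000 reads of the library, with the library total scaled to the median gene. JMJD1C stood at 168, 93.1 and 171 normalised RPM in the control-NC libraries and at 43.1, 10.97 and 28.1 in the sh-JMJD1C libraries, so the groups did not overlap. Its mean in sh-JMJD1C was 19.0% of that in control-NC (limma-voom log2 fold change -2.49, SE 0.51, adjusted p = 0.0253, exact permutation p = 0.1, the smallest that 3 against 3 libraries can give). In the fit on FPKM its adjusted p was 0.118. With trends over transcript length and GC removed from the reads, its log2 fold change was -1.20 (adjusted p = 0.0574). VIM, CD44 and EGFR, markers of glioma or mesenchymal lines, were read in every library, while NES and SOX9 had 2 to 32 reads, GFAP and TNC had at most 6 and S100B had 0. Markers of other cell types had at most 11 reads each, with PECAM1 and MOG at 0 in all libraries. The nuclear RNA MALAT1 took 1.25% to 2.40% of the control-NC reads and 0.0915% to 0.292% of the sh-JMJD1C reads. RN7SL transcripts, which belong to the signal recognition particle, took 0.378% to 1.77% and 1.18% to 18.5%, with its lowest sh-JMJD1C share in library 1. In control-NC library 1, 25.03% of all reads belonged to 1 gene identifier. The part of these shares in the results below was not tested.

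Of the 62 factors, 58 had reads and 4 had none in all 6 libraries. The limma fit on the log2 of the deposited FPKM, the main test, called 0 of 53 tested factors at an adjusted p below 0.05, against 0.185% of all 18383 genes tested there, and 21 of the 53 had an unadjusted p below 0.05, against 19.9% of all genes. The limma-voom fit on recovered reads, which weights libraries and genes by depth and stands beside the main test, tested the 52 factors with at least 60 reads over the libraries and called 10, in both directions. On reads, the genes called higher in sh-JMJD1C were EIF5A, EIF6, EIF5AL1, EIF4A3, EIF4E2 and EIF3I, by 2.80-fold to 5.33-fold. The genes called lower were EIF3A, EIF2S2, EIF5B and EIF5, by 3.58-fold to 4.59-fold. The 10 calls were 19.2% of the tested factors, against 5.52% of all 11877 genes tested, of which 3.71% were called higher and 1.81% lower. The median log2 fold change was 0.23 over the tested factors and -0.08 over all genes. In 18 of the 52 factors every sh-JMJD1C library lay above every control-NC library, and in 6 every one lay below. Over all genes tested the groups did not overlap in 34.6%, evenly split at 17.3% in each direction. The factors' share of all reads overlapped between the groups, at 1.28% to 2.19% in control-NC and 1.64% to 1.82% in sh-JMJD1C.

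These calls depended on the unit and on single libraries. Restricted to protein-coding genes, the FPKM fit called 9 factors, 8 of them among the 10 above, against a background of 8.96%. On recovered reads, 0 factors were called without control-NC library 1, without control-NC library 3, without sh-JMJD1C library 2 or without sh-JMJD1C library 3, where 0.332%, 0.333%, 0.271% and 0.863% of all genes were called and 17, 18, 17 and 20 factors had an unadjusted p below 0.05. Without sh-JMJD1C library 1 the count was 22 (background 20.1%), and without control-NC library 2 it was 11 (background 10.6%). With both libraries numbered 1 left out it was 9 (background 8.38%), of which 7 were higher and 2 lower. Scaling to library totals called 3 factors higher and 7 lower, against 6 and 4 (background 10.1%), and moved the median log2 fold change of all genes from -0.08 to -0.52 and of the factors from 0.23 to -0.14. All 10 genes kept their direction under each alternative fit on reads in which they were tested. Below, tested and called refer to the fit on recovered reads unless the FPKM fit is named.

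**Figure D1:**
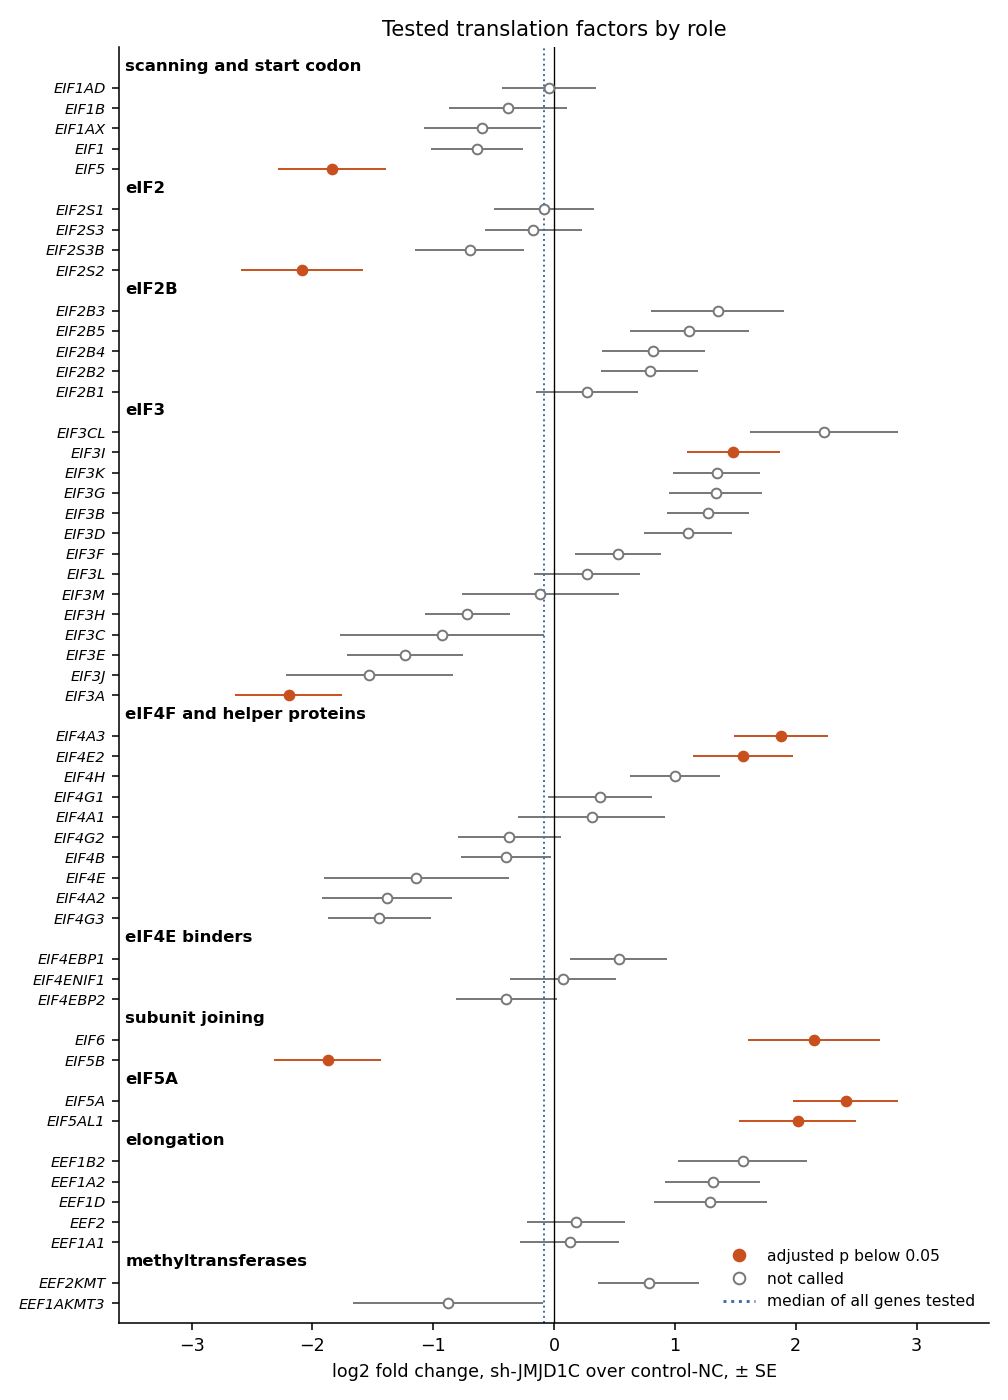
Log2 fold change of sh-JMJD1C over control-NC from the fit on recovered reads (horizontal axis), with SE bars, for the 52 tested factors grouped by role. Filled points mark the 10 genes with an adjusted p below 0.05, 6 to the right of 0 and 4 to the left, and the dotted line marks the median of all genes tested, -0.08.

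The small factors that govern scanning and start codon choice are eIF1, which keeps the scanning complex open, its close relative EIF1B, eIF1A, and eIF5, which triggers GTP hydrolysis by eIF2. EIF5 (chr14:103333544-103345025, + strand, GRCh38) stood at 290, 140 and 312 normalised RPM in control-NC and at 72.1, 40.4 and 91.3 in sh-JMJD1C. Every sh-JMJD1C library was below every control-NC library, and EIF5 was called lower (log2 fold change -1.84, SE 0.45, adjusted p = 0.0395). EIF1 was the most abundant of this group in control-NC, at 168 RPKM, here the normalised RPM divided by the length of the longest transcript in kilobases. EIF1 read 324, 336 and 515 normalised RPM in control-NC and 192, 224 and 336 in sh-JMJD1C, which overlapped (log2 fold change -0.64, SE 0.38, adjusted p = 0.27). EIF1B read 29.9, 21.6 and 25.9 against 17.0, 10.97 and 36.5, with both the lowest and the highest value in sh-JMJD1C (log2 fold change -0.38, adjusted p = 0.611). EIF1AX and EIF1AD, the latter placed here by its symbol, had log2 fold changes of -0.59 and -0.04. Thus 1 of the 5 tested members was called, the median log2 fold change was -0.59 and all 5 were below 0. With length and GC trends removed 4 of the 5 were below 0.

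The heterotrimer eIF2 carries the initiator tRNA, and its alpha subunit, EIF2S1, is the site at which stress kinases stop initiation. Of its subunits only the beta subunit gene, EIF2S2 (chr20:34088298-34112332, - strand), was called. EIF2S2 read 255.9, 124 and 154 normalised RPM in control-NC and 71.0, 18.5 and 44.2 in sh-JMJD1C. The groups did not overlap and the fold change was 4.25 in favour of control-NC (log2 fold change -2.09, SE 0.50, adjusted p = 0.0391). EIF2S3, the gamma subunit gene and the most abundant of the group per kilobase, read 230, 215 and 475.5 in control-NC and 231, 223 and 308 in sh-JMJD1C. Those ranges overlapped (log2 fold change -0.17, SE 0.40, adjusted p = 0.788), and so did those of EIF2S1, whose log2 fold change was -0.08. The retrogene EIF2S3B had -0.70 (adjusted p = 0.302). With length and GC trends removed, EIF2S1 had 0.75 (adjusted p = 0.11), and every sh-JMJD1C library lay above every control-NC library. EIF2S3 and EIF2S3B had 0.09 and -0.76 in that fit (adjusted p = 0.881 and 0.26). Whether EIF2S2 differed from the other subunits was not tested. The 7 annotated EIF2S2 pseudogenes together held 17.6% as many reads as EIF2S2, and reads of near-identical copies could have been split among them.

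For eIF2B, the exchange factor that returns eIF2 to its active form, all 5 subunit genes had log2 fold changes above 0 (median 0.82). None was called, and 2 had an unadjusted p below 0.05, against 30.8% of all genes. EIF2B3, the gene of the gamma subunit in the catalytic part of the complex, read 12.8, 13.4 and 19.3 normalised RPM in control-NC and 19.3, 45.9 and 79.4 in sh-JMJD1C. The lowest sh-JMJD1C value lay at the highest control-NC value, and the difference did not pass the test (log2 fold change 1.35, SE 0.55, adjusted p = 0.126). EIF2B1, the most abundant per kilobase, read 44.8, 56.1 and 60.1 against 40.3, 70.6 and 103. Its ranges overlapped (log2 fold change 0.27, adjusted p = 0.68) and its sign changed with scaling to library totals. EIF2B2, EIF2B4 and EIF2B5 had log2 fold changes of 0.79, 0.82 and 1.12 with adjusted p from 0.149 to 0.207.

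The largest initiation factor, eIF3, binds the small subunit and bridges it to the mRNA. Subunits A, C, E, F, H, K, L and M form its core, B, G and I form a mobile module, D lies near the mRNA exit, and J is loosely held. All 14 genes, EIF3CL included, were tested, and they split by direction: 8 had log2 fold changes above 0 and 6 below. EIF3A (chr10:119033670-119080823, - strand), the scaffold of the complex, read 753, 388 and 432 normalised RPM in control-NC and 186, 73.4 and 100 in sh-JMJD1C. No sh-JMJD1C library reached the lowest control-NC library, and EIF3A was called lower by 4.59-fold (log2 fold change -2.20, SE 0.44, adjusted p = 0.0243). EIF3I (chr1:32221928-32231604, + strand), a propeller protein of the mobile module and the most abundant subunit gene per kilobase in sh-JMJD1C, read 89.6, 148 and 116 in control-NC and 236, 450 and 333 in sh-JMJD1C. It was called higher by 2.80-fold with no overlap (log2 fold change 1.48, SE 0.39, adjusted p = 0.0474).

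The other genes of the mobile module, EIF3B and EIF3G, and EIF3K of the core lay close to the threshold, and they are named here after their values were seen. EIF3B read 177, 203 and 220 normalised RPM in control-NC and 462, 522 and 467 in sh-JMJD1C. The groups lay far apart for their spread, and the adjusted p was 0.0504 (log2 fold change 1.27, SE 0.34). EIF3G and EIF3K had log2 fold changes of 1.34 and 1.35 (adjusted p = 0.0594 and 0.0507), and EIF3D, the exit-side subunit, had 1.11 (adjusted p = 0.0784). With length and GC trends removed, EIF3G, EIF3K and EIF3D had only 0.11, 0.29 and 0.41 (adjusted p = 0.822, 0.504 and 0.347). EIF3B had 0.94 in that fit (adjusted p = 0.0681). EIF3F, at 0.53 with no trend removed (adjusted p = 0.318), had 1.72 in that fit (adjusted p = 0.0516). EIF3H went from -0.72 (adjusted p = 0.186) to -0.02 (adjusted p = 0.976). With no trend removed, every sh-JMJD1C library was above every control-NC library in EIF3B, EIF3D, EIF3F, EIF3G, EIF3I, EIF3K and EIF3CL. In EIF3A and EIF3H every one was below. The groups were thus apart in 9 of 14 subunit genes, against 34.6% of all genes tested. With length and GC trends removed they were apart in 50% of the 14, against 31.5% of all genes. With no trend removed, EIF3E and EIF3J, at log2 fold changes of -1.24 and -1.53, overlapped because sh-JMJD1C library 3 lay above control-NC library 2. EIF3C, EIF3L and EIF3M had log2 fold changes of -0.93, 0.27 and -0.12, and none was called. For EIF3C it was 0.18 without sh-JMJD1C library 2 and -1.84 without sh-JMJD1C library 1, and for EIF3M it was 0.57 without the latter.

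EIF3C and EIF3CL are near-identical neighbours on chromosome 16, so reads could have been split between them. EIF3C read 19.2, 58.1 and 15.9 normalised RPM in control-NC and 47.7, 2.74 and 18.3 in sh-JMJD1C. EIF3CL read 0, 9.35 and 5.13 in control-NC and 36.3, 21.9 and 22.5 in sh-JMJD1C (log2 fold change 2.23, SE 0.61, adjusted p = 0.053). Their sum was 35.9 ± 27.4 in control-NC and 49.8 ± 30.7 in sh-JMJD1C (SD, n = 3), within the spread of either group. EIF3CL made up 0% to 24.4% of that sum in control-NC and 43.2% to 88.9% in sh-JMJD1C.

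**Figure D2:**
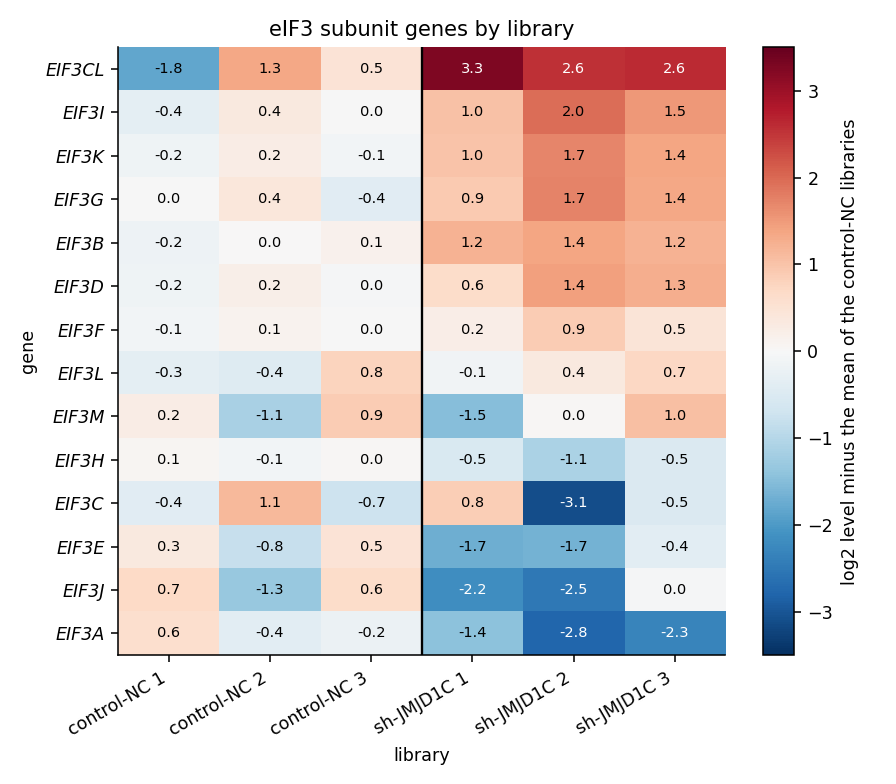
Levels of the 14 eIF3 subunit genes in each library, as log2 level minus the mean of the control-NC libraries, with genes ordered by fold change and the vertical line separating the groups. EIF3CL, EIF3I, EIF3K, EIF3G, EIF3B, EIF3D and EIF3F are positive in all 3 sh-JMJD1C libraries, EIF3A, EIF3E, EIF3H and EIF3J are negative in all 3, and EIF3L, EIF3M and EIF3C differ in sign among them.

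The cap-binding complex eIF4F joins the cap-binding protein eIF4E, the scaffold eIF4G and the helicase eIF4A, with eIF4B and eIF4H as helpers of the helicase. These genes were grouped with their homologs. Of the 12 genes in the group 10 were tested and 2, both of them homologs, were called higher, with a median log2 fold change of -0.03. EIF4A3, a helicase known for its place in the exon junction complex rather than for initiation, was called (chr17:80135214-80147183, - strand). EIF4A3 read 81.0, 118 and 139 normalised RPM in control-NC and 294, 546 and 435 in sh-JMJD1C. Each sh-JMJD1C library exceeded every control-NC library, by 3.67-fold in the fit (log2 fold change 1.87, SE 0.39, adjusted p = 0.026). Its initiation paralog EIF4A2 read 171, 110 and 273 in control-NC and 45.4, 40.4 and 157 in sh-JMJD1C. Those ranges overlapped through sh-JMJD1C library 3 (log2 fold change -1.38, SE 0.54, adjusted p = 0.117). EIF4A1 read 10.7, 10.6 and 12.5 against 5.68, 32.2 and 16.9, from 82 and 81 reads in all per group. For EIF4A1, 48.6% of the exon bases are shared with other genes on the same strand and its 13 pseudogenes held 263% as many reads, so its level is uncertain. With no trend removed, EIF4A3 supplied 30.9%, 49.3% and 32.8% of the reads of the EIF4A genes in control-NC and 85.2%, 88.3% and 71.5% in sh-JMJD1C. With length and GC trends removed, EIF4A2 had a log2 fold change of -0.39 (adjusted p = 0.518).

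Among the cap-binding proteins, EIF4E2, a homolog of eIF4E known for translational repression, was called higher (chr2:232550052-232583644, + strand). EIF4E2 read 68.2, 36.2 and 31.3 normalised RPM in control-NC and 85.7, 124 and 150 in sh-JMJD1C. The groups lay apart, with the closest pair being the libraries numbered 1 (log2 fold change 1.56, SE 0.41, adjusted p = 0.0485). On the other strand, 24.2% of its exon bases overlap other genes, and strand use in counting is unstated. EIF4E itself read 17.1, 8.54 and 19.55 in control-NC and 17.0, 1.37 and 7.02 in sh-JMJD1C. This was a low level with overlap (log2 fold change -1.14, SE 0.76, adjusted p = 0.32), and its 5 pseudogenes held 52.3% as many reads. EIF4E3 had 40 reads in the control-NC libraries together and 11 in sh-JMJD1C and was not tested. EIF4E1B, an oocyte relative, had 0 reads.

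The scaffold genes differed in direction without a call. EIF4G1, the main scaffold, read 663, 751 and 470 normalised RPM in control-NC and 1399, 684 and 559 in sh-JMJD1C. Sh-JMJD1C library 1 stood above all others and the rest overlapped (log2 fold change 0.38, SE 0.43, adjusted p = 0.564). EIF4G2, which lacks the eIF4E site, read 676, 673 and 621 against 925, 346 and 419, with sh-JMJD1C library 1 above and libraries 2 and 3 below every control-NC library (log2 fold change -0.37, adjusted p = 0.568). EIF4G3 read 258, 176 and 156 in control-NC and 118, 48.0 and 59.7 in sh-JMJD1C. For EIF4G3 all sh-JMJD1C libraries were below all control-NC libraries, with an adjusted p of 0.0604 (log2 fold change -1.45, SE 0.42). It was called with scaling to library totals (log2 fold change -1.83). With the length trend removed it had -0.92 (adjusted p = 0.153), and with length and GC trends removed -0.76 (adjusted p = 0.172), and its groups overlapped in both. EIF4B, the most abundant per kilobase in control-NC, read 680, 631 and 1064 against 680, 489 and 579, which overlapped (log2 fold change -0.40, adjusted p = 0.479). EIF4H stood at 219 ± 48.1 against 440 ± 103 (SD, n = 3) with no overlap (adjusted p = 0.102).

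The 4E-binding proteins hold eIF4E away from eIF4G until mTORC1 phosphorylates them, and EIF4ENIF1 carries eIF4E into the nucleus. EIF4EBP1, the most abundant of them per kilobase, read 78.9, 110 and 52.8 normalised RPM in control-NC and 107, 147 and 88.5 in sh-JMJD1C. EIF4EBP2 read 87.4, 82.5 and 109 against 114, 43.2 and 70.2. The groups of both overlapped, and no gene of this group had an unadjusted p below 0.05 there (log2 fold changes 0.53 and -0.40, adjusted p = 0.377 and 0.53). Both changed sign with the length trend removed (-0.29 and 0.25) and with length and GC trends removed (-0.76 and 0.57, adjusted p = 0.114 and 0.221). EIF4ENIF1 had a log2 fold change of 0.07. EIF4EBP3 had 0 reads, and 73.4% of its exon bases are shared with the readthrough gene ANKHD1-EIF4EBP3, which had 1 to 32 reads per library.

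The factors that act on the large subunit moved in opposite directions, and both were called. EIF5B (chr2:99337353-99401326, + strand), the GTPase that joins the subunits, read 331, 146 and 172 normalised RPM in control-NC and 51.7, 37.7 and 83.6 in sh-JMJD1C. Every sh-JMJD1C library was lower, by 3.67-fold in the fit (log2 fold change -1.87, SE 0.44, adjusted p = 0.0376). EIF6 (chr20:35278911-35284985, - strand), which keeps the large subunit from joining and serves in its assembly in the nucleolus, read 27.7, 54.5 and 37.9 in control-NC and 84.6, 401 and 178 in sh-JMJD1C. Every sh-JMJD1C library was higher, with a 4.44-fold change in the fit and a wide spread within sh-JMJD1C (log2 fold change 2.15, SE 0.54, adjusted p = 0.0435). AL121753.1 shares 17.4% of the exon bases of EIF6 on the same strand.

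EIF5A showed the largest fold change among the called genes. It encodes the factor that carries hypusine and lets ribosomes pass difficult peptide bonds. EIF5A (chr17:7306999-7312463, + strand) read 230, 367 and 225 normalised RPM in control-NC and 876, 2279 and 1445 in sh-JMJD1C. The lowest sh-JMJD1C library exceeded the highest control-NC library by a wide margin, and the fold change in the fit was 5.33 (log2 fold change 2.41, SE 0.44, adjusted p = 0.018). EIF5AL1, an intronless copy on chromosome 10 (chr10:79512601-79516440, + strand), read 4.26, 10.17 and 5.38 against 23.8, 32.2 and 29.5. It was called higher by 4.04-fold (log2 fold change 2.02, SE 0.48, adjusted p = 0.0387), and it made up 1.82% to 2.69% of the sum of both genes in control-NC and 1.39% to 2.65% in sh-JMJD1C. Reads of such close copies could have been split, so the EIF5AL1 value is uncertain. EIF5A2, the paralog with a restricted pattern, had 16 reads in control-NC (exact Poisson 95% interval 9.15 to 26.0) and 1 read in sh-JMJD1C (0.0253 to 5.57), intervals that cover counting error only, and it was not tested.

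**Figure D3:**
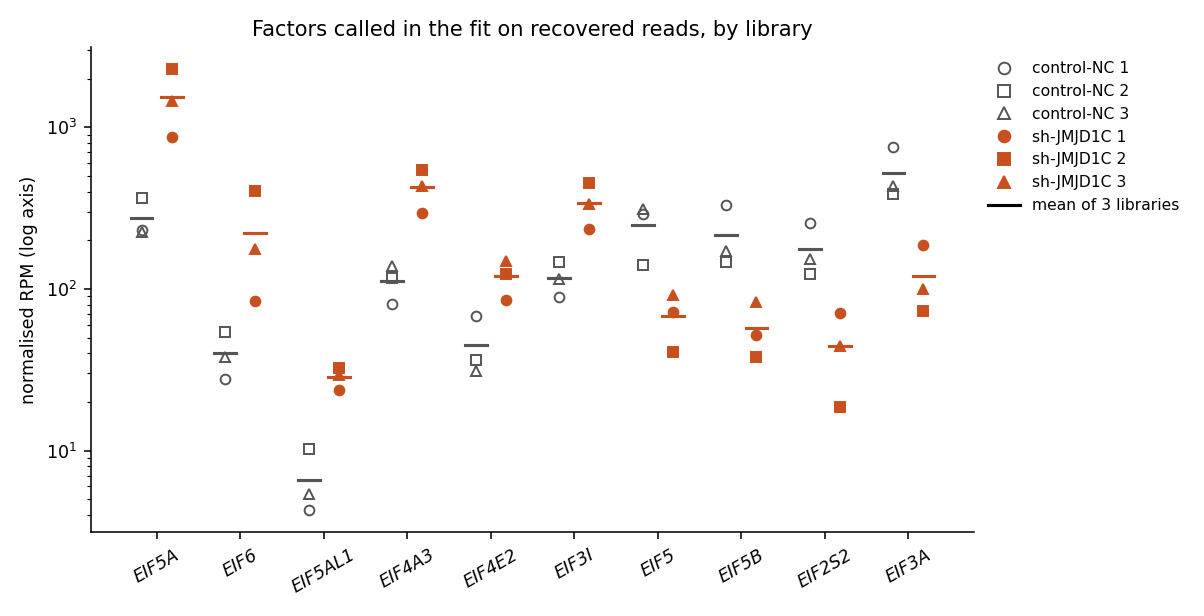
Normalised RPM on a log axis for the 10 genes called in the fit on recovered reads, ordered by fold change, with 1 point for each of the 6 libraries and a bar at each group's mean. The groups do not overlap in any of the 10, and sh-JMJD1C library 1 is the closest sh-JMJD1C library to control-NC in all but EIF5 and EIF5B.

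Elongation factor genes held the highest levels of the set and gave no call, with 3 of 5 tested at an unadjusted p below 0.05, against 30.8% of all genes. EEF2, the translocase, was the most abundant factor gene at 1424 RPKM in control-NC. EEF2 read 4271, 5159 and 4085 normalised RPM in control-NC and 5113, 6318 and 4052 in sh-JMJD1C. The groups overlapped (log2 fold change 0.18, SE 0.41, adjusted p = 0.781). EEF1A1, the main aminoacyl-tRNA carrier, read 2086, 2509 and 2943 against 1899, 3409 and 2936, with both extremes in sh-JMJD1C (log2 fold change 0.13, SE 0.41, adjusted p = 0.846). The sign of both EEF1A1 and EEF2 changed with scaling to library totals and with quantile normalization. With length and GC trends removed, EEF2 had -0.38 (adjusted p = 0.442), and every sh-JMJD1C library lay below every control-NC library. EEF1A1 had 0.54 in that fit (adjusted p = 0.375). EEF1A2, the isoform of muscle and neurons that is also found in tumours, read 499, 615 and 371 in control-NC and 1412, 1427 and 886 in sh-JMJD1C. Its groups did not overlap, at an adjusted p of 0.0624 (log2 fold change 1.31, SE 0.39). EEF1A2 supplied 11.2% to 19.7% of the sum of both eEF1A genes in control-NC and 23.2% to 42.6% in sh-JMJD1C. The 49 annotated EEF1A1 pseudogenes together held 49.1% as many reads as EEF1A1 itself, so its reads could have been split.

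The exchange complex of eEF1A had its largest difference in EEF1B2. EEF1B2 read 196, 264.7 and 233 normalised RPM in control-NC and 251, 1055 and 1154 in sh-JMJD1C. Libraries 2 and 3 of sh-JMJD1C stood far above the rest and library 1 lay within the control-NC range (log2 fold change 1.56, SE 0.53, adjusted p = 0.085). EEF1D read 318, 390 and 317 against 396, 1404 and 1023, with library 1 just above the control-NC range (log2 fold change 1.29, SE 0.47, adjusted p = 0.0971). Both were called when sh-JMJD1C library 1 was left out, with log2 fold changes of 2.26 for EEF1B2 and 1.82 for EEF1D (adjusted p = 0.002 and 0.00476). In that fit 20.1% of all genes were called. With the length trend removed EEF1B2 and EEF1D had 0.75 and 1.40 (adjusted p = 0.269 and 0.0915). With length and GC trends removed they had 0.74 and 0.88 (adjusted p = 0.258 and 0.222), with overlap in both genes. EEF1G, the third subunit gene of that complex, had 0 reads in all 6 libraries, which allows up to 3 reads, or 1.01 to 5.51 RPM, for counting error only. AP002990.1 shares 99.9% of the EEF1G exon bases on the same strand and had 2 to 6 reads per library. The 8 EEF1G pseudogenes held 10 to 43 reads per library, and the handling of reads in shared exons is unstated. EEF1E1 had 46 reads in all and was tested in the FPKM fit only (log2 fold change 0.57, adjusted p = 0.726), and the readthrough gene EEF1E1-BLOC1S5, whose exon bases are 100% shared, had 0. Thus the median log2 fold change over the 5 tested elongation genes was 1.29, and 2 of the 5 had groups that did not overlap, near the 34.6% of all genes. That median was 0.75 with the length trend removed and 0.74 with length and GC trends removed.

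The methyltransferases of elongation factors were read at low levels, and none of those tested had an unadjusted p below 0.05 in either fit. EEF2KMT, the most abundant per kilobase, read 32.0, 37.8 and 17.8 normalised RPM in control-NC and 45.4, 50.05 and 42.8 in sh-JMJD1C, without overlap but also without a call (log2 fold change 0.78, SE 0.42, adjusted p = 0.217). EEF1AKMT3 read 0, 6.10 and 14.2 against 3.41, 5.48 and 4.21, with both extremes in control-NC (log2 fold change -0.88, adjusted p = 0.454). EEF1AKMT1 and EEF1AKMT2 had 37 and 34 reads in all, too few for the fit on reads. In the FPKM fit EEF1AKMT1 had a log2 fold change of -0.69 (adjusted p = 0.325). EIF1AY, on the Y chromosome, also had too few reads for the test.

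Fold changes of the factors followed the base composition and length of their transcripts, as they did over all genes. Across the 52 tested factors, Spearman's rho of the log2 fold change was 0.67 with the GC content of the longest transcript and -0.41 with its length. Across 11857 genes the values were 0.54 and -0.46. Genes share libraries and are not independent replicates, so these are descriptions. The longest transcripts of the 6 genes called higher had 45.6% to 58.0% GC and 1289 to 3840 nt, and those of the 4 called lower had 38.6% to 45.2% GC and 2656 to 6646 nt. Thus the GC ranges of the called genes did not overlap. When a trend over length was removed from each library, 7 factors were called, against 3.42% of all genes. These were EIF5A, EIF5AL1, EIF4A3, EIF4E2 and EIF3B higher and EIF3A and EIF2S2 lower. When trends over length and GC were both removed, 7 were called against 6.75% of all genes, namely EIF5A, EIF5AL1, EIF4A3, EIF4E2 and EEF1A2 higher and EIF2S2 and EIF3E lower. EIF5A, EIF5AL1, EIF4A3, EIF4E2 and EIF2S2 were called in all 3 of these fits. With both trends removed the log2 fold changes were 1.23 for EIF5A, 2.34 for EIF5AL1, 2.13 for EIF4A3, 1.71 for EIF4E2 and -2.07 for EIF2S2. EIF6, EIF3I, EIF5, EIF5B and EIF3A had log2 fold changes of 0.87, 0.57, -0.88, -0.81 and -1.25 in that fit and were not called. The part of RNA quality or library preparation in these trends was not tested.

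**Figure D4:**
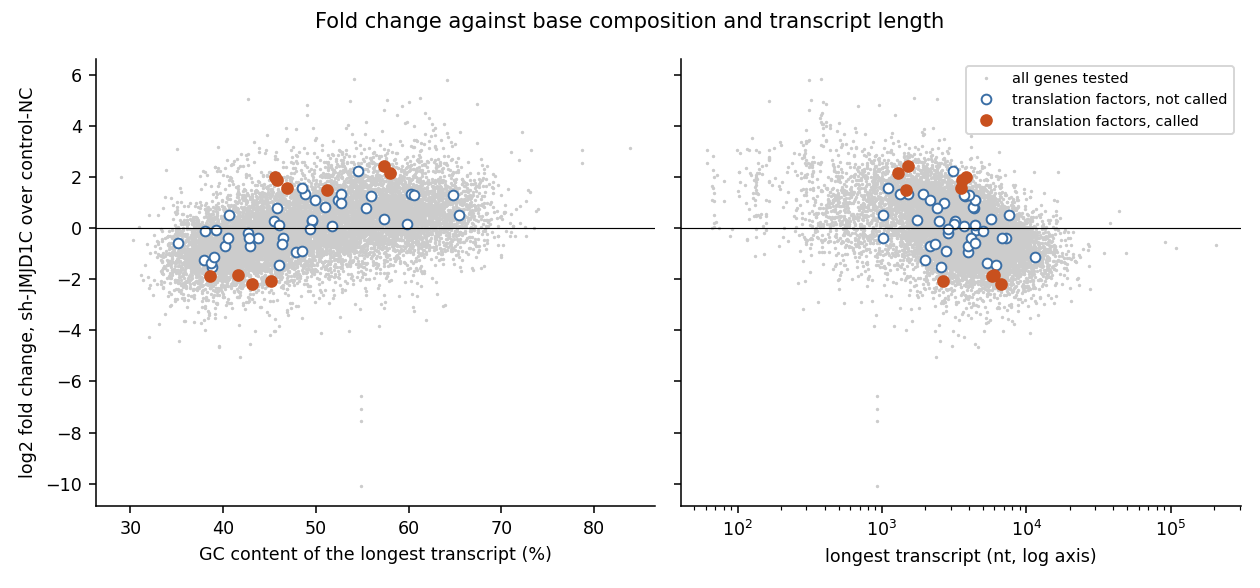
Log2 fold change of sh-JMJD1C over control-NC against the GC content of the longest transcript in percent (left) and its length in nt on a log axis (right), for all genes tested (grey), tested translation factors (open) and the 10 called factors (filled). The factors lie within the cloud of all genes and share its slope, upward with GC content (Spearman's rho 0.67) and downward with length (-0.41).

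Many mRNAs of the translation machinery begin with a C followed by an unbroken run of pyrimidines, the terminal oligopyrimidine (TOP) tract, through which mTORC1 and LARP1 control their translation. The RefSeq table of gene starts (GRCh38.p14) held 49 of the 62 factors. A tract, here a C followed by at least 4 more bases that are each C or T on the strand of the gene, beginning within 5 bases of a listed start, was found in 22 of the 49, or 44.9%. The same search found it in 25.2% of the 27305 genes of that table. It began exactly at a listed start base in 22.4% of the factors and in 5.14% of all genes in the table, counting a start inside a longer run where its own base is a C. The windows below run from 10 bases before the start to 15 after it, with the tract in capitals where there is one. They show elongation factors (EEF1A1, EEF2, EEF1B2) and examples from eIF4F (EIF4B, EIF4A2) and eIF3 (EIF3D, EIF3K) at a start with a tract, then examples of called genes without one.
EEF1A1, chr6:73521018-73521042, - strand: cgtgaacgttCTTTTTCgcaacggg
EEF2, chr19:3985449-3985473, - strand: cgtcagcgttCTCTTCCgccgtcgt
EEF1B2, chr2:206159885-206159909, + strand: ctcttcgggtCCTTTTTCCTCTCTT
EIF4B, chr12:53006446-53006470, + strand: tcatccgggtCTTTTgcgttctctt
EIF4A2, chr3:186783567-186783591, + strand: gcgccgctgtCTTTTCagtcgggcg
EIF3D, chr22:36529152-36529176, - strand: cgcatgtttCCTCTTTTCCTggttt
EIF3K, chr19:38619178-38619202, + strand: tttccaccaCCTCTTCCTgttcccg
EIF4A3, chr17:80147114-80147138, - strand: cggcagcggcacagcgaggtcggca
EIF5B, chr2:99337379-99337403, + strand: ctgagaactcacaccatatgtgtcc
EIF3I, chr1:32222397-32222421, + strand: ttccggtcttactcacgttgcggcc
EIF5AL1, chr10:79512523-79512547, + strand: aaaatgcctgggtagaggcggcggc

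The 19 tested factors with a tract had a median log2 fold change of -0.17, from -1.84 for EIF5 to 1.56 for EIF4E2, and the 21 tested factors without a tract had a median of 0.79, from -1.87 for EIF5B to 2.41 for EIF5A. The ranges overlapped widely and no test was made between them. Of the 8 called genes with a listed start, 2 had a tract, EIF4E2 and EIF5, each at some of its listed starts only. EIF4A2 and EIF3K, both shown above with a tract, had log2 fold changes of -1.38 and 1.35. A match in these windows is a description of letters and not of a site in use. The tract was not looked for in EIF2S2, EIF3A, EIF3CL, EIF3E, EIF3G, EIF3H, EIF3L, EIF4EBP1, EEF1A2, EEF1D, EEF1AKMT1, EEF1AKMT3 and EEF2KMT.

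The genes that act on these factors were described from lists chosen by function. All 47 were tested on recovered reads, and 1 was called higher and 2 lower, or 6.38%, against 5.52% of all genes. Their median log2 fold change was -0.56. Among the 9 kinases and phosphatase subunits, EIF2AK2, the kinase that senses double-stranded RNA and phosphorylates eIF2, was called lower, from 120 ± 34.1 to 42.3 ± 10.9 normalised RPM (SD, n = 3, log2 fold change -1.49, SE 0.39, adjusted p = 0.0494). With the length trend removed its log2 fold change was -0.67 (adjusted p = 0.222), and with length and GC trends removed it was -0.07 (adjusted p = 0.901). PPP1R15A, a subunit that directs phosphatase to eIF2, had -1.12 (adjusted p = 0.0932) and was called lower with both trends removed (-1.95, adjusted p = 0.0217). EIF2AK3, the kinase of the endoplasmic reticulum, had -2.19 with an adjusted p of 0.0736, and EEF2K, which phosphorylates eEF2, had 0.08. Of the 12 genes for poly(A) binding, termination and recycling, EIF2A, an alternative carrier of initiator tRNA, was called lower, from 164 ± 58.0 to 49.95 ± 15.6 (log2 fold change -1.67, SE 0.43, adjusted p = 0.0456).

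In the mTORC1 arm 0 of 10 genes were called by limma-voom, and 3 had an unadjusted p below 0.05, near the 30.8% of all genes. The kinases of ribosomal protein S6 had opposite signs, RPS6KB2 at a log2 fold change of 1.62 (adjusted p = 0.0546) and RPS6KB1 at -1.23 (adjusted p = 0.124). RPS6KB2 was called with the length trend removed (adjusted p = 0.045) and with length and GC trends removed (adjusted p = 0.042), where RPS6KB1 had -0.81 and -0.18. Of the others, TSC1, a restraint on mTORC1, had -1.63 (adjusted p = 0.0591). LARP1, which binds TOP mRNAs, had -0.65 with overlap. With the length trend removed TSC1 had -0.88 (adjusted p = 0.195), and with length and GC trends removed -0.90 (adjusted p = 0.135). Its groups overlapped in both fits, where LARP1 had -0.07 and -0.27. The enzymes that make hypusine on eIF5A and diphthamide on eEF2 gave 0 calls among 8, with 2 at an unadjusted p below 0.05, against 30.8% of all genes. DOHH, which completes hypusine, had a log2 fold change of 2.18 at a low level of 4.38 ± 2.59 against 13.05 ± 4.14 normalised RPM (SD, n = 3, adjusted p = 0.0614), and DHPS, which begins it, had 0.51. With length and GC trends removed DOHH had 1.17 (adjusted p = 0.128) and DHPS -0.75 (adjusted p = 0.224), with overlap in both. Among the 8 mitochondrial factors TUFM, the mitochondrial counterpart of eEF1A, was called higher, from 143 ± 38.5 to 528 ± 208 (log2 fold change 1.85, SE 0.41, adjusted p = 0.0323). It was not called with the length trend removed (log2 fold change 1.37, adjusted p = 0.0542) or with length and GC trends removed (0.88, adjusted p = 0.0738). Its partners TSFM and GFM1 had log2 fold changes of 1.21 and -0.60 and were not called.

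Several factor genes are hosts of small nucleolar RNAs, which guide RNA modification and are cut from introns. Of 19 annotated small nucleolar RNA genes inside the factors, 11 overlap an exon of their host and all 11 had 0 reads in every library. How reads in shared exons were handled is unstated, so these counts of 0 do not show that the RNAs were absent. Of the 8 outside host exons, 4 had reads, namely RF00494 and RF00493 in EIF1AX, SNORA28 in EIF5 and SNORD66 in EIF4G1. SNORA28 had 1, 0 and 5 reads in control-NC and 0, 8 and 21 in sh-JMJD1C, while its host EIF5 was lower in sh-JMJD1C. These are few reads, and no test was made of them.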

How the data were processed

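The authors deposited FPKM, fragments scaled to gene length and library total, and per the file headers the last column holds the full library. Per the submitters' processing notes Bowtie 0.12.2 and hg38 were named, with no role given. Annotation, strand use and treatment of ambiguous reads are unstated in the sources used here. Whole reads were recovered from FPKM, gene length and library total, and 100% of values under 1000 reads came out whole within 0.05 of a read.

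The main test, in the deposited unit, was limma (3.58.1) with trend on log2(scaled FPKM + 0.5), for genes with mean FPKM of at least 0.5. That scale understates low genes. Beside it stood limma-voom on recovered reads, for genes with at least 60 reads. Both used median-ratio scaling and two-sided Benjamini-Hochberg adjustment over all genes tested, at 0.05. Length and GC trends were lowess fits (span 0.3). Scripts were tested on simulated data. Named genes were members called in either test, in each role group the tested member with the largest fold change on reads and the most abundant per kilobase, and paralog sets. Members and lists were chosen with earlier results of these data known. Coordinates are GENCODE 29 on GRCh38.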

Additional observations from a re-analysis of the deposited data

How the results depend on the processing

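On recovered reads the count of 10 called factors became 22 with sample quality weights (against 21.4% of all genes), 26 with the replicate block (18 higher and 8 lower, against 35.9% of all genes) and between 0 and 22 with each library left out in turn, where a group of 2 libraries shares the pooled spread. It was 9 with at least 20 reads, 11 with at least 200 reads and 10 with quantile normalization (5 in each direction), against 4.79%, 8.43% and 8.22% of all genes, and otherwise as given above. Whether the replicate numbers pair the libraries is unstated, and the values do not settle it. Same-numbered libraries' deviations from their group means correlated at 0.02, 0.37 and 0.48 for numbers 1, 2 and 3. Control-NC libraries 2 and 3 correlated best with the sh-JMJD1C library of their own number, and library 1 did not. In the FPKM fit the count of 0 became 9 with protein-coding genes only, lay between 0 and 3 with each library left out, and stayed at 0 with the replicate block and the other alternatives. JMJD1C kept its direction throughout, at -1.82 (log2) and past the threshold with protein-coding genes only, and at -2.49 on recovered reads (-1.75 with the length trend removed, -1.20 and no longer past the threshold with length and GC trends removed).

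Without both libraries numbered 1, the groups did not overlap in 38 factors, against 24 with all libraries. Over all genes the share was 59.9%, against 34.6% with all libraries. Smaller groups fail to overlap more often by chance alone, so no conclusion about the libraries left out was drawn from these rises. Scaling to library totals moved the median log2 fold change to -0.85 for eIF2, 0.0302 for eIF3, -0.41 for eIF4F and -0.46 for the methyltransferases. The methyltransferase median was -0.29 with the length trend removed, and the eIF3 median was 0.63 without both libraries numbered 1. The cause of these shifts was not tested. No called factor changed direction on recovered reads. Of the factors with reads, 6 had under 60 in all and were left out of the fit on reads. The FPKM fit tested EEF1E1 and EEF1AKMT1 of them.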
